A study of Mus musculus with 6 samples.

Results

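Microglia and macrophages are the resident phagocytes of the brain, and 34 genes that mark them were followed here in RNA of sorted cells of the newborn mouse cerebellum. The genes were taken by symbol from a table of 19630 genes, and all 34 were found in it. They cover homeostatic microglial genes, the growth receptor and lineage factors, receptors that signal through an activating adaptor, the complement component C1q, leukocyte surface proteins, lysosomal proteins, innate sensors, activation and lipid genes, and markers of macrophages at the brain's borders. The irradiated group held 3 libraries from Swiss Webster mice of the genotype Nes-CFP/+ that were irradiated at postnatal day 1 and collected at postnatal day 5. The control group held 3 libraries from mice of the same strain, genotype and collection day that were not irradiated. In every library the cerebellum was dissociated with papain and the cells were sorted for the CFP reporter, a fluorescent protein driven here by Nestin sequences and meant to label neural progenitors and glia, not macrophages. Whether a library came from 1 animal or from pooled animals is not given in the sources used here, so the p-values reflect no more than library-to-library spread, which may be technical. These are bulk samples, and more cells of a type cannot be told apart from more RNA per cell.

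Microglia descend from yolk sac progenitors, settle in the brain before birth and depend on signalling through the colony-stimulating factor receptor for survival. In the early postnatal cerebellum they engulf dying cells and debris, tag targets with complement, and release growth factors. Macrophages of the meninges and perivascular spaces share much of this expression, and are told apart by genes such as *Mrc1* and *Pf4*. The lineage factor PU.1, encoded by the member *Spi1*, binds purine-rich DNA and acts at many macrophage promoters.

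Stretches of 150 bases ahead of the annotated starts, without bases of annotated exons, are shown for 6 members. Of these, 5 hold a purine-rich PU.1-type motif and 1 lacks it. The sequences are from RefSeq on GRCm38.p6, and the motif searched was GAGGAAG or, on the other strand, CTTCCTC, printed in capitals. The stretches are chr2:14229242-14229391 for *Mrc1*, chr5:104434961-104435110 for *Spp1*, chr5:90772285-90772434 for *Pf4*, chr17:48346251-48346400 for *Trem2* and chr7:128062490-128062639 for *Itgam*, all on the plus strand, and chr4:136886201-136886350 on the minus strand for *C1qb*.
Mrc1: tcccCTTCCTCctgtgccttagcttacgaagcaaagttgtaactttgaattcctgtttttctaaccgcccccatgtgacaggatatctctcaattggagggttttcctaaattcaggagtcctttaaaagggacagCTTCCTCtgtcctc
Spp1: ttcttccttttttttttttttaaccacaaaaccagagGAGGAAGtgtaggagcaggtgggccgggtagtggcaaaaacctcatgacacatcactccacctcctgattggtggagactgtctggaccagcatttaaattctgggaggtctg
Pf4: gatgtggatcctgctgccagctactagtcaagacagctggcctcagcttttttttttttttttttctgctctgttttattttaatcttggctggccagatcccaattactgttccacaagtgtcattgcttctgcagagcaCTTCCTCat
Trem2: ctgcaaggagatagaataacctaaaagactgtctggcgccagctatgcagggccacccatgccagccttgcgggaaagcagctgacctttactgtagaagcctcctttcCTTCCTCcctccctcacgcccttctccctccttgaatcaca
Itgam: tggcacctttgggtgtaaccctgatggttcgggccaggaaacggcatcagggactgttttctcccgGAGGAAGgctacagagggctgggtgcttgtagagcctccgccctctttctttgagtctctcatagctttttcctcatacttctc
C1qb: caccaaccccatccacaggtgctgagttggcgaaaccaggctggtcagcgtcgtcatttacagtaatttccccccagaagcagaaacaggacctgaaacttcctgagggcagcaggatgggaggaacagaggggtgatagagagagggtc
In the 250 bases ahead of a start, 9 of the 24 members with a promoter sequence held the motif on either strand (37.5%), against 12% of 27025 genes. The others of the 9 were *C1qc*, *Fcgr3*, *Laptm5* and *P2ry13*. These matches are a description of the letters only, and the absence of a match in *C1qb* says nothing of PU.1. A part of PU.1 in the differences between libraries was not tested.

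The sorted cells were rich in the labelled lineage. The 6 lineage markers (*Nes*, *Atoh1*, *Zic1*, *Slc1a3*, *Fabp7* and *Sox2*) summed to 421251, 354224 and 260666 scaled counts in the irradiated libraries, against 445393, 360399 and 369303 in the control libraries. A scaled count is the number of reads of a gene divided by the size factor of its library. Libraries held 30986269 to 31070520 reads over the listed genes in the irradiated group and 31130326 to 37067530 in the control group. The 34 members together made up 0.0360% of all scaled counts in the irradiated group and 0.0315% in the control group. Single members had between 10 and 3516 reads in a library, and 5 had a mean scaled count under 50, so the lower ones carry a wide counting error.

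All 34 members were detected in every library. On the scale of scaled counts per kb of exon, the highest by the mean of all 6 libraries were *Lgmn*, the lysosomal protease legumain (1122 in irradiated and 1217 in control libraries), and the C1q chain *C1qa* (451 in irradiated and 329 in control libraries). The secreted phosphoprotein *Spp1* had 488 per kb in irradiated and 281 in control libraries, and the adaptor *Tyrobp* 309.6 in irradiated and 259 in control libraries. The lowest was the leukocyte phosphatase *Ptprc*, at 3.75 in irradiated and 2.48 in control libraries. For scale, the lineage gene *Slc1a3*, a glutamate transporter of glia, had 23330.5 per kb in irradiated and 25675 in control libraries. *Lgmn* is not limited to macrophages, and its level varied less between libraries than that of the other members.

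One control library stood apart for these genes. Control replicate 1 was the lowest of the 6 libraries for 30 of the 34 members (88.2%), whereas it was the lowest for 18.1% of all 16674 genes tested. The exceptions were *Tmem119*, *Olfml3*, *Lgmn* and *Cd83*. Control replicate 2 held a median of 2.43 times the level of control replicate 1 over the members, with a range of 0.839 to 4.85, while the median over all genes was 0.983. Control replicate 3 held a median of 1.85 times the level of control replicate 1, with a median of 0.994 over all genes. Within the irradiated group, replicate 1 was the lowest for 31 of 34 members, and replicate 3 held a median of 1.73 times its level, with 1.0 over all genes. Irradiated replicate 3 was the highest of the 6 libraries for 20 members, against 22.6% of all genes.

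**Figure D1:**
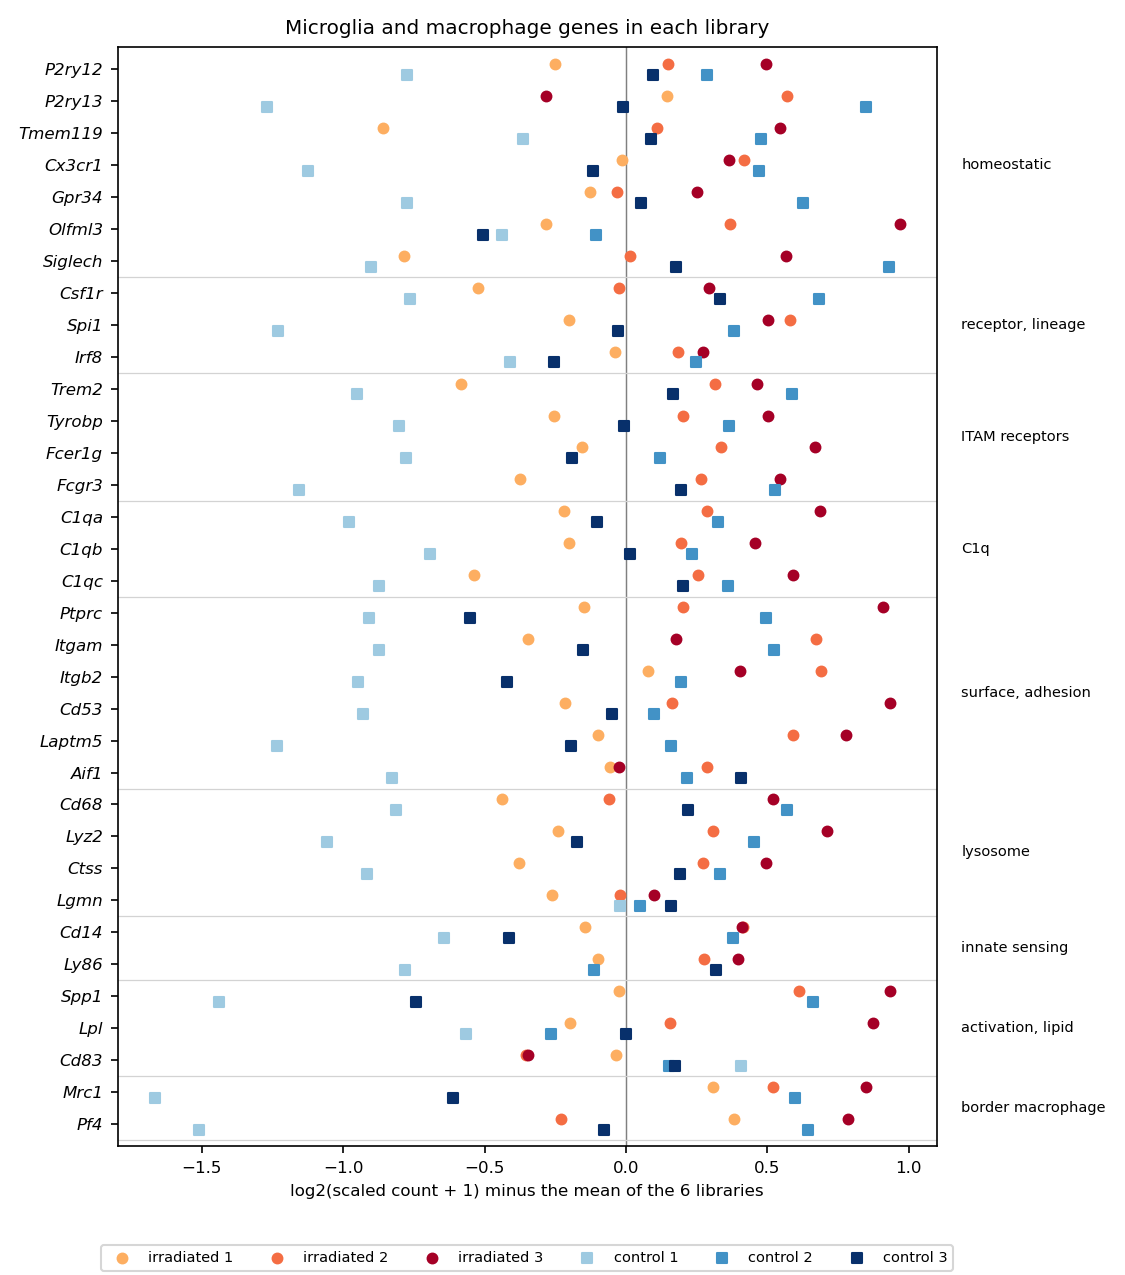
Level of each of the 34 genes in each library as log2(scaled count + 1) minus the mean of the 6 libraries, grouped by role; circles are irradiated and squares control libraries. Control replicate 1 lies lowest for 30 of the 34 genes, and irradiated replicate 3 lies highest for 20.

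In the comparison of irradiated with control libraries, none of the 34 members passed the test. The test was limma's moderated test on log2(scaled count + 1) with Benjamini-Hochberg adjustment over 16674 genes and a threshold of 0.05, and it called 9 of those genes (0.054%), 0.042% as higher and 0.012% as lower in the irradiated group. A log2 fold change below is irradiated minus control on that scale and understates the change of low genes. In this fit 29 members were higher and 5 lower (*Tmem119*, *Siglech*, *Csf1r*, *Lgmn* and *Cd83*), with a median log2 fold change of 0.32 over the members, against -0.0028 over all genes, of which 49.4% were higher. At an unadjusted p under 0.05, limma gave 5 members, 4 of them higher (*Laptm5*, *Mrc1*, *Olfml3* and *Itgb2*) and 1 lower (*Cd83*), while it gave 4.5% of all genes, 2.42% higher and 2.08% lower. *Cd83* had the lowest adjusted p of the members (0.795), and the adjusted p of every other member rounded to 1. The 3 irradiated values did not overlap the 3 control values for 1 of the 34 members (2.94%), *Cd83*, against 8.83% of all genes, 4.83% higher and 4.01% lower.

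The median depended on which library was left out. Without control replicate 1, 18 members were higher and 16 lower and the median log2 fold change was 0.027. Without control replicate 2 the median was 0.59, and without irradiated replicate 1 it was 0.54, with 32 members higher in each case. No member passed the test without any 1 of the 6 libraries. Blocking on the replicate number left the number of members called at 0, against 0.15% of all genes, and gave 11 members at an unadjusted p under 0.05, 10 of them higher, against 8.29% of all genes and 4.05% higher. With same-numbered libraries set beside each other, 10 members were higher in the irradiated library in all 3 pairs, and 2 (*Lgmn* and *Cd83*) were lower in all 3, against 15.4% of all genes higher and 14.5% lower in all 3. The median log2 difference of the members between same-numbered libraries, irradiated minus control, was 0.58 in pair 1, -0.066 in pair 2 and 0.47 in pair 3, with 31, 11 and 29 of the 34 members higher.

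**Figure D2:**
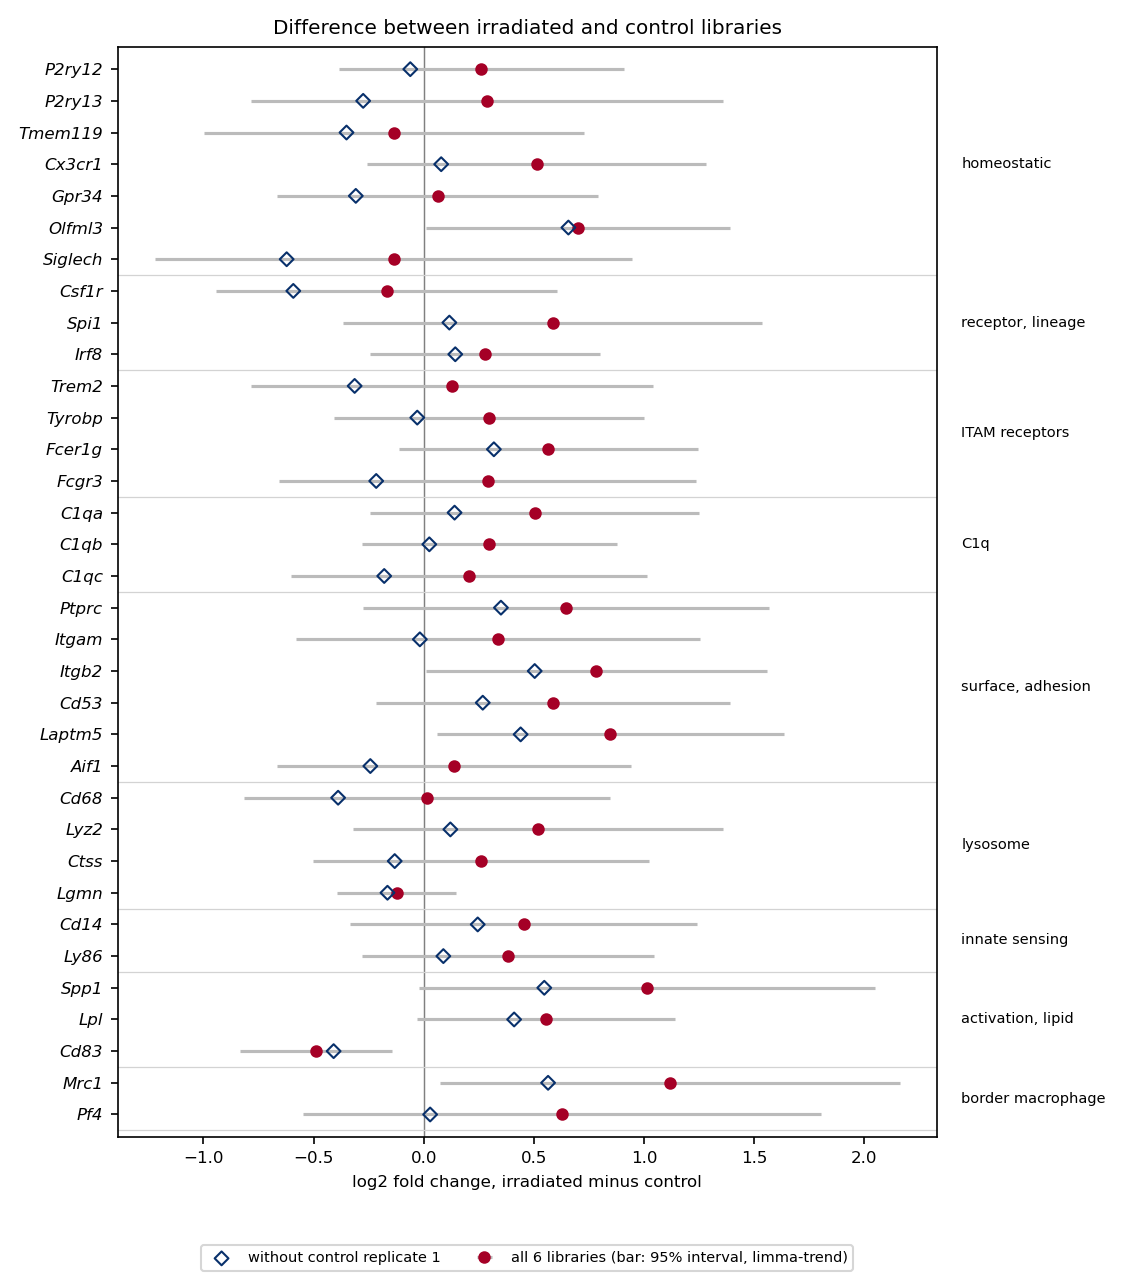
Log2 fold change of each gene, irradiated minus control, with its 95% interval from the limma fit, by role; open diamonds leave out control replicate 1. The interval of 29 genes includes 0, *Mrc1* and *Spp1* have the highest values (1.12 and 1.01), and *Cd83* the lowest (-0.49).

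Homeostatic genes, which mark the surveying state of microglia, were 5 higher and 2 lower of 7, with a median log2 fold change of 0.26 and none past the test. Without control replicate 1 they were 2 higher and 5 lower, with a median of -0.27, and without control replicate 2 all 7 were higher. *P2ry12*, an ADP receptor that guides microglial processes to injury, had 370.1, 489 and 622 scaled counts in the irradiated libraries, against 257, 538 and 471 in the control libraries. The groups overlapped, since control replicates 2 and 3 lay within the irradiated range, and the log2 fold change was 0.26 (SE 0.29). *Cx3cr1*, the receptor for the neuronal chemokine fractalkine, had 455, 613 and 591 scaled counts in the irradiated libraries and 209.8, 636 and 423 in the control libraries. Control replicate 2 had the highest *Cx3cr1* value of the 6, and the log2 fold change was 0.51 (SE 0.34). *Gpr34*, a lysophosphatidylserine receptor, had 139, 148 and 180.4 scaled counts in the irradiated libraries, against 88.1, 234 and 157 in the control libraries. The irradiated values of *Gpr34* sat inside the control range.

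The homeostatic gene with the highest fold was *Olfml3*, which encodes a secreted glycoprotein. It had 105, 166 and 252 scaled counts in the irradiated libraries and 94.4, 119 and 90.1 in the control libraries, with a log2 fold change of 0.70 (SE 0.31) and an unadjusted p of 0.0471 in limma. Only irradiated replicate 1 fell inside the control range, and *Olfml3* was 1 of the 4 members for which control replicate 1 was not the lowest library. The log2 fold change was 0.66 without control replicate 1, 0.39 without irradiated replicate 3 and 1.02 without irradiated replicate 1. *P2ry13*, a second ADP receptor, had log2 fold change 0.29 (SE 0.48), the sialic acid-binding lectin *Siglech* -0.14 (SE 0.48), and *Tmem119*, a membrane protein used as a microglial label, -0.14 (SE 0.38). The 95% intervals of these 3 all included 0 and were -0.78 to 1.36 for *P2ry13*, -1.22 to 0.95 for *Siglech* and -1.0 to 0.73 for *Tmem119*. The log2 fold change of *Cx3cr1* was 0.079 without control replicate 1 and 0.88 without control replicate 2, and the sign of *P2ry12*, *P2ry13*, *Gpr34*, *Siglech* and *Tmem119* changed with 1 library left out.

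The growth receptor gene and the 2 lineage factors went different ways in the fit. *Csf1r*, the receptor for the growth factors that keep microglia alive, had 493, 698 and 871 scaled counts in the irradiated libraries, against 418, 1139 and 894 in the control libraries. The irradiated values lay within the wide control range, with a log2 fold change of -0.17 (SE 0.34) and a 95% interval of -0.94 to 0.61. Without control replicate 1 the *Csf1r* difference was -0.59, with an unadjusted p of 0.0396 and an adjusted p of 0.806 in limma. *Spi1* had 41.7, 72.5 and 68.5 scaled counts in the irradiated libraries and 19.9, 63.0 and 47.2 in the control libraries, with a log2 fold change of 0.59 (SE 0.42). *Irf8*, which works with PU.1 in microglial development, had 117, 137 and 145 scaled counts in the irradiated libraries and 90.2, 143 and 100.4 in the control libraries. Control replicate 2 lay among the irradiated values for both factors, and the *Irf8* log2 fold change was 0.28 (SE 0.23). The log2 fold change of *Spi1* was 0.12 without control replicate 1 and 0.92 without control replicate 2, and that of *Irf8* 0.14 without control replicate 1 and 0.47 without control replicate 2. In the annotation 15.1% of the *Csf1r* exon bases also lie in exons of *Hmgxb3* on the other strand, and whether counting used the strand is not known from the labels.

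The 4 genes of receptors that signal through an activating adaptor were all higher in the fit, with a median log2 fold change of 0.29, but without control replicate 1 they were 1 higher and 3 lower, with a median of -0.12. *Tyrobp* encodes DAP12, the adaptor of the lipid-sensing receptor encoded by *Trem2*. *Tyrobp* had 152, 209 and 258 scaled counts in the irradiated libraries, against 104, 234 and 181 in the control libraries, and *Trem2* had 99.0, 185 and 206 in the irradiated libraries and 76.6, 224 and 167 in the control libraries. Both overlapped between groups, and the highest *Trem2* value was in control replicate 2. The log2 fold changes were 0.30 (SE 0.31) for *Tyrobp* and 0.13 (SE 0.41) for *Trem2*. *Fcer1g*, the common gamma chain of Fc receptors, had 84.4, 119 and 150.2 scaled counts in the irradiated libraries and 54.6, 102 and 82.4 in the control libraries. It was higher in the irradiated library of all 3 same-numbered pairs and had the highest fold of the 4, 0.57 (SE 0.30). *Fcgr3*, a low-affinity receptor for immunoglobulin G, had 98.0, 153 and 186 scaled counts in the irradiated libraries and 56.7, 184 and 146 in the control libraries. Control replicates 2 and 3 lay within the irradiated range. *Fcer1g* stayed higher with each library left out, at 0.32 without control replicate 1 and 0.78 without irradiated replicate 1.

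The 3 C1q chains, which together start the classical complement cascade, form a cluster on chromosome 4 and showed similar but not equal profiles over the libraries. *C1qa* had 327, 466 and 615 scaled counts in the irradiated libraries, against 193, 478 and 355 in the control libraries. *C1qb* had 358, 471 and 564 in the irradiated libraries and 254, 484 and 415 in the control libraries, and *C1qc* had 293, 508 and 641 in the irradiated libraries and 232, 547 and 489 in the control libraries. For each chain irradiated replicate 3 was highest and control replicate 1 lowest. The log2 fold changes were 0.50 (SE 0.33) for *C1qa*, 0.30 (SE 0.26) for *C1qb* and 0.21 (SE 0.36) for *C1qc*. Without control replicate 1 they were 0.14 for *C1qa*, 0.025 for *C1qb* and -0.18 for *C1qc*.

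Leukocyte surface and adhesion genes were higher in the fit for 6 of 6, with a median log2 fold change of 0.61, and again none passed the test. Without control replicate 1 they were 4 higher and 2 lower, with a median of 0.31. *Laptm5*, a lysosomal membrane protein of blood-derived cells, was the most abundant in scaled counts, with 370.1, 598 and 680.3 in the irradiated libraries, against 168, 443 and 347 in the control libraries. Control replicate 2 lay above irradiated replicate 1, and the log2 fold change was 0.85 (SE 0.35), with an unadjusted p of 0.0379 in limma. With the replicate block the adjusted p of *Laptm5* was 0.167, the lowest of any member under any of the settings run. Its log2 fold change was 0.44 without control replicate 1 and 1.14 without control replicate 2. The tetraspanin gene *Cd53* had 96.9, 126 and 217 scaled counts in the irradiated libraries and 58.8, 121 and 109 in the control libraries, with a log2 fold change of 0.59 (SE 0.36). The highest value was that of irradiated replicate 3, and the log2 fold change was 0.27 without irradiated replicate 3 and 0.84 without irradiated replicate 1.

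*Ptprc*, which encodes CD45 of all leukocytes, had 46.9, 60.1 and 98.8 scaled counts in the irradiated libraries and 27.3, 73.8 and 35.2 in the control libraries, with a log2 fold change of 0.64 (SE 0.41). Control replicate 2 lay inside the irradiated range, and the log2 fold change was 0.35 without irradiated replicate 3 and 1.05 without control replicate 2. The integrin chains *Itgb2* and *Itgam*, which pair as a complement receptor, had log2 fold changes of 0.78 (SE 0.34) for *Itgb2* and 0.34 (SE 0.41) for *Itgam*. *Itgb2* was 1 of the 5 members with an unadjusted p under 0.05 in limma (0.0480), with a log2 fold change of 0.50 without control replicate 1 and 1.08 without control replicate 2. In the annotation 68.7% of the *Itgam* exon bases also lie in exons of *Gm49368* on the same strand, so its counts are uncertain. *Aif1*, the source of the microglial stain IBA1, had a log2 fold change of 0.14 (SE 0.36) and a highest value in control replicate 3.

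Lysosomal genes had the lowest median log2 fold change of the roles, 0.14, with 3 of 4 higher in the fit, and without control replicate 1 it was -0.15, with 1 of 4 higher. *Lgmn* had 2255, 2664 and 2899.8 scaled counts in the irradiated libraries, against 2664, 2797 and 3018 in the control libraries. The groups overlapped in a narrow range, and the log2 fold change of -0.12 (SE 0.12) had a 95% interval of -0.39 to 0.15. *Ctss*, a cathepsin of antigen-presenting cells, had 256, 403 and 469.7 scaled counts in the irradiated libraries and 176, 420.3 and 380.3 in the control libraries, with a log2 fold change of 0.26 (SE 0.34). *Lyz2*, lysozyme, had 169, 248 and 328 scaled counts in the irradiated libraries and 95.5, 274 and 177 in the control libraries. Its fold was the highest of the 4, 0.52 (SE 0.37), although control replicate 2 lay inside the irradiated range, and it was 0.12 without control replicate 1 and 0.88 without control replicate 2. *Cd68*, a lysosomal glycoprotein often read as a sign of phagocytic activity, had a log2 fold change of 0.015 (SE 0.37), with a 95% interval of -0.82 to 0.84.

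Both innate sensors were higher in the fit. *Cd14*, the coreceptor for bacterial lipopolysaccharide, had 27.1, 40.4 and 40.3 scaled counts in the irradiated libraries and 18.9, 39.4 and 22.3 in the control libraries. *Ly86*, which encodes the partner MD-1 of a Toll-like receptor relative, had 108, 141 and 153 scaled counts in the irradiated libraries and 67.1, 107 and 145 in the control libraries. Both were higher in the irradiated library of every same-numbered pair, and for both the groups overlapped. The log2 fold changes were 0.45 (SE 0.35) for *Cd14* and 0.38 (SE 0.29) for *Ly86*, and without control replicate 1 0.24 for *Cd14* and 0.089 for *Ly86*.

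Among activation and lipid genes, *Spp1* and *Cd83* went opposite ways. *Spp1*, osteopontin, a secreted protein of phagocytic microglia, had 536, 834 and 1041 scaled counts in the irradiated libraries, against 200.4, 863 and 325 in the control libraries. Control replicate 2 lay above irradiated replicates 1 and 2, and the other control libraries lay below all 3 irradiated ones. The log2 fold change was 1.01 (SE 0.46) with a 95% interval of -0.021 to 2.05. It was 0.55 without control replicate 1 and 1.60 without control replicate 2. Of the *Spp1* exon bases, 18.8% also lie in exons of *Gm42793* on the same strand. *Lpl*, lipoprotein lipase, had 573, 734 and 1206 scaled counts in the irradiated libraries and 445, 547 and 658 in the control libraries, with a log2 fold change of 0.55 (SE 0.26). It was higher in the irradiated library of all 3 pairs, and the log2 fold change was 0.26 without irradiated replicate 3 and 0.79 without irradiated replicate 1.

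*Cd83*, an immunoglobulin-superfamily protein known from activated dendritic cells, had 485, 388 and 390.1 scaled counts in the irradiated libraries, against 658, 552 and 561 in the control libraries. Every irradiated value lay below every control value, and control replicate 1, the lowest library for most members, was the highest for *Cd83*. The log2 fold change was -0.49 (SE 0.15) with a 95% interval of -0.83 to -0.15, an unadjusted p of 0.0103 and an adjusted p of 0.795 in limma. Without control replicate 1 its log2 fold change was -0.41. *Cd83* did not follow the other members between libraries. Control replicate 2 held 0.839 times its level in control replicate 1, against a median of 2.43 over the members. Which of the sorted cells its reads came from was not tested.

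The border macrophage genes had the highest ratios of the highest to the lowest control library among the members, 4.85 for *Mrc1* and 4.78 for *Pf4*. *Mrc1*, the mannose receptor, had 337, 390.5 and 489.8 scaled counts in the irradiated libraries, against 85.0, 412 and 178 in the control libraries. Control replicate 2 lay above irradiated replicates 1 and 2, and control replicate 1 was far below all others. The log2 fold change was 1.12 (SE 0.46) with an unadjusted p of 0.0381 in limma, and it was 0.56 without control replicate 1 and 1.70 without control replicate 2. *Pf4*, a chemokine also made by platelets, had 41.7, 26.9 and 55.4 scaled counts in the irradiated libraries and 10.5, 50.2 and 30.0 in the control libraries, with a log2 fold change of 0.63 (SE 0.52). That of *Pf4* was 0.029 without control replicate 1 and 1.11 without control replicate 2. The platelet marker *Itga2b* was in the table at 25.0, 25.9 and 24.2 scaled counts in irradiated and 19.9, 26.6 and 31.8 in control libraries. Its range was narrower than that of *Pf4* and, as for *Pf4*, its lowest value was in control replicate 1. A further platelet gene, *Gp1bb*, had 43.8, 49.7 and 50.4 in irradiated and 50.4, 61.0 and 84.1 in control libraries, with its lowest value in irradiated replicate 1. The platelet markers *Ppbp* and *Gp9* were not found in the table. The part of platelets in the *Pf4* reads was not tested.

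Since the members varied together, each was also set against the summed scaled counts of the 3 C1q chains in its own library, a measure chosen after the data had been seen. Summed C1q was 978, 1445 and 1820.3 scaled counts in the irradiated libraries, against 679, 1509.8 and 1260.1 in the control libraries. Of the other 31 members, 3 were higher and 3 lower per C1q in all irradiated libraries than in all control libraries (19.4%), against 4.34% of all genes, 0.498% higher and 3.84% lower. Such a ratio shows unequal change within a library and not which gene changed. The chains did not move wholly together. Per 100 summed C1q, *C1qa* had 33.5, 32.3 and 33.8 in the irradiated libraries, against 28.4, 31.7 and 28.2 in the control libraries, without overlap. *C1qb* and *C1qc* overlapped between groups. The ratios of the members may thus depend on the chain used, and single chains were not tested. The share over all genes is no like baseline here. Most genes did not follow C1q, so dividing by it carries its overlap between groups into their values. Undivided, the groups did not overlap for 8.83% of all genes and 2.94% of the members. Whether the members exceed a like baseline was not tested. *Laptm5* had 37.8, 41.4 and 37.4 per 100 C1q scaled counts in the irradiated libraries, against 24.7, 29.3 and 27.5 in the control libraries. *Cd53* had 9.91, 8.75 and 11.9 in the irradiated libraries and 8.66, 8.02 and 8.65 in the control libraries, and *Fcer1g* had 8.64, 8.24 and 8.25 in the irradiated libraries and 8.04, 6.78 and 6.54 in the control libraries. The gap for *Laptm5* was wide, while those of *Cd53* and *Fcer1g* were narrow beside their spread.

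The 3 genes that were lower per C1q were *Csf1r*, *Cd68* and *Tmem119*. *Csf1r* had 50.4, 48.3 and 47.8 per 100 C1q scaled counts in the irradiated libraries, against 61.5, 75.4 and 71.0 in the control libraries. *Cd68* had 11.3, 9.96 and 11.8 in the irradiated libraries and 12.5, 14.8 and 13.9 in the control libraries, and *Tmem119* had 3.09, 4.16 and 4.49 in the irradiated libraries and 6.34, 5.15 and 4.70 in the control libraries. In contrast, *P2ry12* (37.8, 33.8 and 34.2 in irradiated, 37.9, 35.7 and 37.4 in control) and *Tyrobp* (15.6, 14.5 and 14.2 in irradiated, 15.3, 15.5 and 14.4 in control) kept near-constant ratios to C1q in all 6 libraries. With the log2 of summed C1q as a covariate in the limma fit, no member passed the test, against 0.042% of all genes, 19 were higher and 15 lower, and 5 had an unadjusted p under 0.05, against 6.72% of all genes. These counts include the 3 C1q genes, which were fitted against their own sum. In that fit *Csf1r* had a log2 difference of -0.54 with an adjusted p of 0.338, and *Laptm5* a log2 difference of 0.47 with an adjusted p of 0.499.

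**Figure D3:**
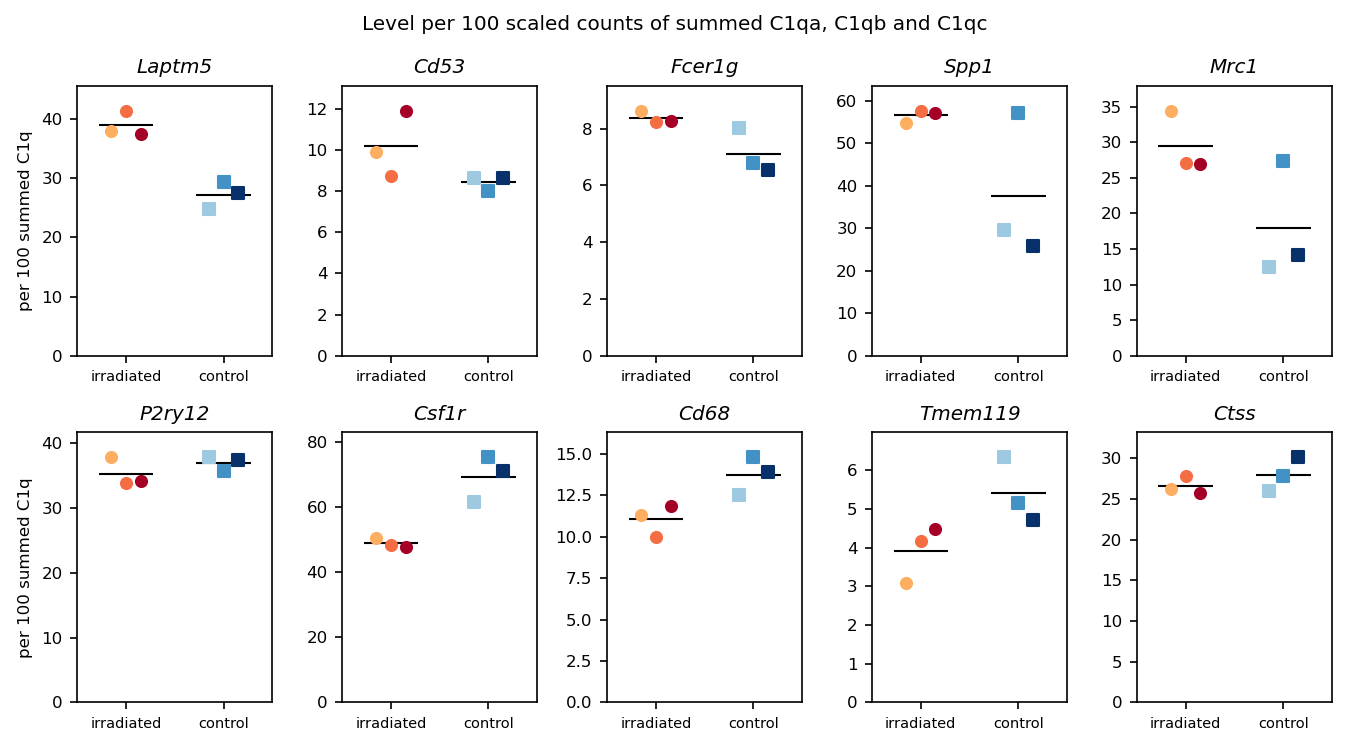
Level of selected genes per 100 scaled counts of the 3 summed C1q chains in each library, irradiated on the left and control on the right of each panel; points are libraries and lines are means. *Laptm5* lies higher and *Csf1r* lower in all 3 irradiated libraries than in all 3 control libraries, and *P2ry12* and *Ctss* stay close to level.

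Other genes of the same biology were read from lists. Over all lists 124 genes reached a mean of 10 scaled counts, and limma called none, and none under any other setting run. Of 28 further microglial genes, 26 were tested, and 21 were higher and 5 lower, with a median log2 fold change of 0.27. Control replicate 1 was the lowest library for 17 of those 26, and without it 17 were higher and 9 lower, with a median of 0.076. The 2 most abundant of them were *Golm1* (6175 ± 576 scaled counts in irradiated and 5533 ± 774 in control libraries, SD, n = 3 each) and *Tgfbr1* (4027 ± 553 in irradiated and 4128 ± 307 in control libraries), neither of which is limited to microglia. Of 10 further border macrophage genes tested, 9 were higher and 1 lower, with a median of 0.59, and control replicate 1 was the lowest library for 9. Without that library 6 were higher and 4 lower, with a median of 0.21, and without control replicate 2 the median was 1.04. The most abundant were *Dab2*, an endocytic adaptor that was lower (1039 ± 61.6 in irradiated and 1209.7 ± 68.5 in control libraries), and the scavenger receptor *Stab1* (486 ± 90.5 in irradiated and 387 ± 118 in control libraries).

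Genes of activated or phagocytic microglia were split, with 12 higher and 7 lower of 19 and a median log2 fold change of 0.051. The 2 most abundant, *Apoe* (32026 ± 1503 in irradiated and 31639.9 ± 2815 in control libraries) and *Cd9* (16881 ± 815 in irradiated and 18456 ± 2078 in control libraries), are also genes of glia. The chemokine gene *Ccl4*, named after its values were seen, had 52.1, 54.9 and 82.6 scaled counts in the irradiated libraries, against 11.5, 31.5 and 32.6 in the control libraries. All 3 irradiated values were above all 3 control values, with a log2 fold change of 1.39 (SE 0.41) and an adjusted p of 0.693 in limma. Of the 19 genes tested in this list, 2 lay higher without overlap (also *Igf1*) and 0 lower, against 4.83% and 4.01% of all genes. Genes of signalling below *Trem2* and DAP12 were 8 higher and 6 lower of 14, with a median of 0.12. The most abundant were *Sirpa*, an inhibitory receptor (8954 ± 1070.3 in irradiated and 9162 ± 1294 in control libraries), and the kinase *Lyn* (656 ± 149 in irradiated and 564 ± 34.8 in control libraries). *Sirpa* was highest in control replicate 1 (10499), the lowest library for most members, and which cells its reads came from was not tested.

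Other complement genes were 6 higher and 4 lower of 10 (median 0.18), led in level by the inhibitor *Serping1* (658 ± 196 in irradiated and 950.1 ± 251 in control libraries) and *Cd93* (659 ± 143 in irradiated and 697 ± 155 in control libraries). Antigen presentation genes were 4 higher and 2 lower of 6 (median 0.19), led by *B2m* (1856 ± 168 in irradiated and 1742 ± 90.6 in control libraries) and *H2-D1* (636 ± 258 in irradiated and 715 ± 554 in control libraries). Ligands that act on microglia from other cells were 4 higher and 8 lower of 12 (median -0.057), led by *Gas6* (2503 ± 350.5 in irradiated and 2148 ± 326 in control libraries) and *Cd47* (2054 ± 118 in irradiated and 2098 ± 208 in control libraries). *Csf1*, a ligand of the receptor encoded by *Csf1r* and named after its values were seen, had 774, 734 and 790.2 scaled counts in the irradiated libraries, against 917, 894 and 1106 in the control libraries. Every irradiated value was below every control value, with a log2 fold change of -0.34 (SE 0.13) and an adjusted p of 0.987 in limma. Of the 12 genes tested in this list, 2 lay lower without overlap (also *Tgfb3*) and 1 higher (*Pros1*), against 4.01% and 4.83% of all genes.

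Sums of markers of other cells were compared over the same libraries. The 5 border macrophage markers (*Mrc1*, *Pf4*, *Lyve1*, *Cd163* and *Ms4a7*), 2 of them members, summed to 518, 576 and 767 scaled counts in the irradiated libraries, against 124, 643 and 293 in the control libraries. The 6 endothelial markers summed to 2219, 3468 and 3118 in the irradiated libraries and 3849.5, 3619.9 and 2798 in the control libraries, with the highest sum in control replicate 1, the lowest library for most members, and the lowest sum in irradiated replicate 1. The erythroid markers, of which 3 of 4 were in the table, summed to 324, 348 and 297 in the irradiated libraries, against 585, 447 and 749 in the control libraries, so the groups did not overlap. The sum of the 6 lineage markers, to which *Slc1a3* and *Fabp7* gave the most counts, was lowest in irradiated replicate 3 and highest in control replicate 1, and control replicate 1 was the highest library for 3 of the 6. *Atoh1*, the factor of granule neuron progenitors, ran the other way, with 283, 483 and 681 scaled counts in the irradiated libraries, against 209, 144 and 324 in the control libraries. Its highest value was in irradiated replicate 3, as for most members, and the log2 fold change was 1.08 (SE 0.36), with an unadjusted p of 0.0133 and an adjusted p of 0.837 in limma. The part of these markers in the differences between libraries was not tested.

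Of the blood cells, the T and NK cell markers were represented by *Lck* alone of 5 (61.5, 50.8 and 70.6 scaled counts in irradiated and 64.0, 82.7 and 84.1 in control libraries), and the B cell markers by 2 of 4 (7.30, 5.18 and 6.05 in irradiated and 13.6, 17.7 and 7.73 in control libraries). Of the 4 monocyte markers, *F13a1*, which border macrophages also express, had 91.7, 107 and 162 in the irradiated libraries and 26.2, 141 and 52.4 in the control libraries. *Plac8* had 0, 4.14 and 8.06 in the irradiated libraries and 5.25, 9.84 and 2.58 in the control libraries. *Ly6c2* and *Ccr2* were not found by symbol in the table.

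Few genes of these cell lists were high enough to test. The 2 monocyte genes were split, *Vcan* lower (28617 ± 3629 scaled counts in irradiated and 33263 ± 1741 in control libraries) and *S100a4* near level (12.2 ± 10.4 in irradiated and 10.1 ± 2.78 in control libraries), and *Vcan* is also expressed by neural progenitors. The single neutrophil gene tested, *S100a9*, averaged 7.76 ± 10.9 in irradiated and 13.1 ± 12.1 in control libraries, and the single T cell gene, *Lck*, 60.9 ± 9.91 in irradiated and 76.9 ± 11.2 in control libraries. The 2 B cell genes were also split, with *Ighm* at 91.5 ± 31.7 in irradiated and 92.3 ± 46.4 in control libraries, and *Pax5* at 28.9 ± 11.5 in irradiated and 36.0 ± 8.81 in control libraries. Both platelet genes were lower in the fit, *Gp1bb* with 48.0 ± 3.64 in irradiated and 65.2 ± 17.3 in control libraries and *Itga2b* with 25.0 ± 0.853 in irradiated and 26.1 ± 5.93 in control libraries. All 4 erythroid genes were lower in the fit, with a median log2 fold change of -0.88. *Hbb-bs* averaged 208 ± 14.3 in irradiated and 364 ± 81.0 in control libraries with an adjusted p of 0.469 in limma, and *Hba-a1* 99.5 ± 17.9 in irradiated and 201 ± 58.9 in control libraries with an adjusted p of 0.529. Of 8 endothelial genes, 1 was higher and 7 lower (median -0.22). *Cldn5* averaged 896 ± 159.9 in irradiated and 1116 ± 205 in control libraries, and *Kdr* 738 ± 165 in irradiated and 826 ± 104 in control libraries. Of the 6 lineage genes 2 were higher and 4 lower (median -0.055), the most abundant being *Slc1a3* (199173 ± 49432 in irradiated and 219189 ± 33323 in control libraries) and *Fabp7* (98491 ± 28365 in irradiated and 125393 ± 12092 in control libraries).

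**Figure D4:**
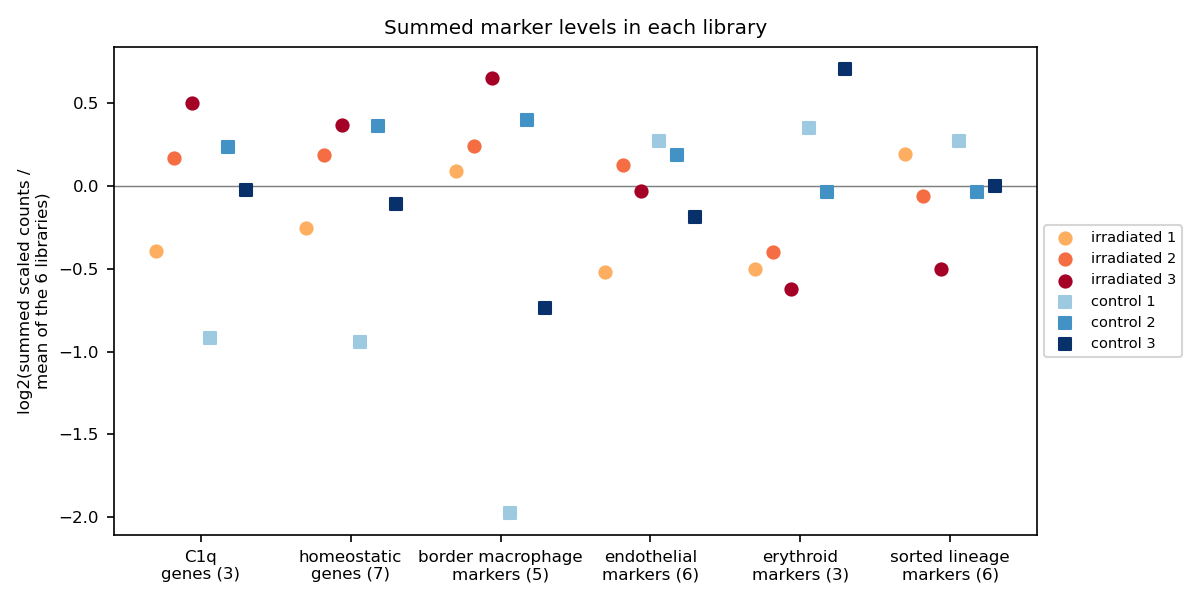
Summed scaled counts of the C1q and homeostatic genes and of marker lists in each library, as log2 of the ratio to the mean of the 6 libraries; circles are irradiated and squares control libraries. The C1q, homeostatic and border macrophage sums are lowest in control replicate 1, where the endothelial and lineage sums are highest.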

How the data were processed

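Poly(A)-selected RNA of sorted cells was sequenced in 3 irradiated and 3 control libraries. Per the submitters' processing notes, HTSeq and DESeq were used with the build mm10, and no versions are stated in those notes. The deposited values are a signal, gene counts that the authors divided by a size factor per library with 1 added: after the 1 was taken off, 100% of the values came out whole (within 0.001 reads), at size factors of 0.953 to 1.16. The table lists genes with at least 15 reads over the libraries.

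The test was limma 3.58.1 (R 4.3.3, with a mean-variance trend) on log2(scaled count + 1) of genes with a mean of at least 10, two-sided, and was tested on simulated data. The simulation checked the code only. It held no shift shared by genes of a library, as the members showed, so it does not give the power for these genes. An exact permutation test of 3 against 3 libraries cannot go below p = 0.10. Same-numbered libraries deviated together (correlations 0.305, 0.151 and 0.451 over all genes), against -0.342 to 0.0503 for differently numbered ones. Deviations were taken from the mean of each group, so positive correlations of same-numbered libraries in part bring negative ones for the others. The contrast between the 2 sets is therefore partly built in. The positive same-numbered correlations were taken as a sign of possible pairing, although no label says what same-numbered libraries have in common. The main fit, which gave the SEs and intervals, did not use the replicate number, and the replicate block was an alternative. Members and lists were chosen with earlier results of these data known. All members are named, with each library's value for up to the 3 most abundant of a role and the one with the largest fold, and the 2 most abundant tested genes of a list where none passed.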

Additional observations from a re-analysis of the deposited data

How the results depend on the processing

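No member passed the test under any of the 14 alternative settings run (no filter, a mean of at least 50, pseudocounts of 0.5 and 5, the replicate block, scaling by library total or upper quartile, summed C1q as covariate, and each library left out), and the lowest adjusted p of a member was 0.167. The library scalings and the covariate were chosen after seeing the data, and the C1q genes were themselves part of the covariate. Over all genes 9 passed, against 25 with the replicate block and 1 to 29 with 1 library left out. Members lower in the fit numbered 5, against 15 with the C1q covariate and 2 to 16 with 1 library left out, while the members' median log2 fold change ran between 0.027 and 0.59 with 1 library left out. With the C1q covariate the log2 difference was -0.035 for *P2ry12*, -0.037 for *P2ry13*, -0.23 for *Gpr34*, -0.29 for *Trem2*, -0.011 for *Tyrobp*, -0.15 for *Fcgr3*, -0.18 for *C1qc*, -0.092 for *Aif1*, -0.36 for *Cd68* and -0.096 for *Ctss*, all higher without it. The sign also changed with 1 library left out for 14 members, with ranges of -0.24 to 0.37 for *Aif1*, -0.18 to 0.53 for *C1qc*, -0.39 to 0.30 for *Cd68*, -0.59 to 0.13 for *Csf1r*, -0.13 to 0.51 for *Ctss*, -0.22 to 0.63 for *Fcgr3*, -0.31 to 0.39 for *Gpr34*, -0.018 to 0.68 for *Itgam*, -0.061 to 0.47 for *P2ry12*, -0.27 to 0.78 for *P2ry13*, -0.62 to 0.29 for *Siglech*, -0.44 to 0.26 for *Tmem119*, -0.31 to 0.46 for *Trem2* and -0.029 to 0.55 for *Tyrobp*. The cause was not tested. The planned count tests (edgeR, DESeq2 and TMM scaling) were not run, although the values came out as whole reads once the added 1 was taken off. Members with few reads are limited by counting error, and control replicate 1 was the lowest library for 30 of the 34. The replicate block changed no call of a member.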

Other observations

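Mast cell genes were read almost wholly in 1 library. The markers *Cpa3*, *Cma1* and *Tpsb2*, proteases of mast cell granules, summed to 0, 0 and 61.5 scaled counts in the irradiated libraries, against 0, 9.84 and 0 in the control libraries. They were seen in irradiated replicate 3 and, at a lower level, in control replicate 2, the libraries with the highest summed C1q of their groups. *Kit*, a receptor of mast cells that neurons also express, did not follow them, with 3118, 3102 and 2531 scaled counts in the irradiated libraries and 3272, 4259 and 3856 in the control libraries. The neutrophil markers in the table, 5 of 7, summed to 0, 20.7 and 58.5 scaled counts in the irradiated libraries and 7.34, 58.1 and 26.6 in the control libraries, again highest in irradiated replicate 3 and control replicate 2. These values are few reads, and no test was run on them.

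The ratio of *Laptm5* to *Csf1r*, picked after their values had been seen, was 75.1, 85.6 and 78.1 *Laptm5* scaled counts per 100 of *Csf1r* in the irradiated libraries, against 40.2, 38.9 and 38.8 in the control libraries. The 2 groups did not overlap, and no test was run on this ratio. The gap had to follow, since *Laptm5* was higher and *Csf1r* lower per C1q in all irradiated libraries. It is therefore no separate observation.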
